A study of Mus musculus with 4 samples.

Results

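The nuclear genes that encode complexes II to V of the mitochondrial respiratory chain and their electron carrier cytochrome c were compared. The comparison was between Control and Cpt1a-deleted cells, labelled as hematopoietic stem cells (HSCs) but described in the study as stem and progenitor cells (HSPCs). Members were the protein-coding genes whose symbols begin with Sdh, Uqcr, Cox4 to Cox8 or Atp5, together with Cyc1, Cycs and Ndufa4. This gave 55 of 55401 gene models, with 54 symbols, since Atp5o is listed under a pair of models. There were 8 for complex II, 9 for complex III, 1 for cytochrome c, 19 for complex IV and 18 for complex V.

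RNA-seq was done on sorted bone marrow cells that the labels call ltHSC and the study calls HSPCs. There were 2 Control libraries (genotype WT in the labels, Cpt1a fl/fl in the study) and 2 KO libraries (Cpt1a-KO). KO mice carry the same floxed allele and Vav1-Cre, which is active throughout the blood system and so deletes the gene in every blood lineage and not in HSCs alone. The study used adult mice of both sexes on a C57BL/6 background, and no drug treatment is given for these libraries. The labels do not say whether the libraries came from separate or pooled animals. The p-values, SEs and intervals thus measure the spread between libraries, which may be technical.

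Complex II (succinate dehydrogenase) passes electrons from succinate, an intermediate of the TCA cycle, into the chain. Complex III passes them on to cytochrome c, complex IV (cytochrome c oxidase) passes them to oxygen, and complex V (ATP synthase) uses the resulting proton gradient to make ATP. Complex II is encoded in the nucleus alone, whereas complexes III, IV and V combine nuclear subunits with a few made from mitochondrial DNA, and several complex IV subunits exist as a broadly expressed form and a tissue-restricted one. HSCs are known for relying little on oxidative phosphorylation while quiescent.

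Promoters of respiratory chain genes are known for binding sites of nuclear respiratory factor 1 (NRF-1), the ETS factor GABP and YY1. RefSeq windows of 250 bases before to 50 after the annotated start (GRCm38.p6) were matched for 42 of the 54 symbols, in 45 windows. The windows of 5 members are shown for the 250 bases before the start, since they hold both kinds of letters together (Cox6a1, Sdhd), 1 kind (Atp5k, Cox6b1) or neither (Cox6b2), and because Cox6b1 and Cox6b2 are alternative forms of the same subunit. Each is given 5′ to 3′ on the strand of the gene, the minus strand in all 5, and capitals mark NRF-1 letters (GCGCA, any base, then GCGC) and ETS letters (CCGGAAG) on either strand. Cox6a1 lies at chr5:115348959-115349208, Sdhd at chr9:50603850-50604099, Atp5k at chr5:108434400-108434649, Cox6b1 at chr7:30626115-30626364 and Cox6b2 at chr7:4753095-4753344.
Cox6a1: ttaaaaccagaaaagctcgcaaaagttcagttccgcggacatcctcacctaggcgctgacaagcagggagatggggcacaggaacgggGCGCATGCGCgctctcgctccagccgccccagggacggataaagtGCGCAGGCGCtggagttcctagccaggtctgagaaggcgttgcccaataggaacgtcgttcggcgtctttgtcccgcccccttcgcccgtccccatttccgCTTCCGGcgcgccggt
Sdhd: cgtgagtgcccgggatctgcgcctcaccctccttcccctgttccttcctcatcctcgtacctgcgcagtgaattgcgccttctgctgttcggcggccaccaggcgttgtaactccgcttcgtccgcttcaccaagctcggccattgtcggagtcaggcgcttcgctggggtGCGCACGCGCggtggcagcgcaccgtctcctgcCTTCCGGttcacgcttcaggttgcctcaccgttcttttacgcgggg
Atp5k: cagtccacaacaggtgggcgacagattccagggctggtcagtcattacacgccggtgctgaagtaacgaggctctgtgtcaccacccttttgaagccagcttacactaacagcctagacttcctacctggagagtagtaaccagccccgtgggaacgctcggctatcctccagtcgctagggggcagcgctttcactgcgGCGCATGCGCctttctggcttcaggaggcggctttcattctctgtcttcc
Cox6b1: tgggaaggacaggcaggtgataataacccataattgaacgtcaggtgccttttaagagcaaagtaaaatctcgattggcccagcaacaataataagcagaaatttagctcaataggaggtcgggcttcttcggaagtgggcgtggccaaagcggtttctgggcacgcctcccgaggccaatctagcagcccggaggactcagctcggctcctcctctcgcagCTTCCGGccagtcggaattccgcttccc
Cox6b2: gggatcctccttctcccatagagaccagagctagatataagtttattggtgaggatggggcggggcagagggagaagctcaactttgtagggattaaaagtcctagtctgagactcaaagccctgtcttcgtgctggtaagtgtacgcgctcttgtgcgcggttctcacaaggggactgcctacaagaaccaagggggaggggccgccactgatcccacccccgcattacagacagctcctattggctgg

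Of the 45 windows, 26.7% held the NRF-1 letters, against 4.60% of all 32851 windows in the table and 9.54% of the 13398 windows of genes tested here. The ETS letters were in 33.3%, against 8.86% and 16.98%. The YY1 letters (AANATGGCG) were in 8.89%, against 2.38% and 4.81%, and a TATA box (TATAAA) was in 8.89%, against 13.6% and 7.11%. No motif contains another, and all were searched on both strands. By symbol, 12 members held the NRF-1 letters, 15 the ETS letters and 4 the YY1 letters. In all, 24 held at least 1 of these, and 5 (Atp5h, Atp5k, Cox6a1, Sdhaf3 and Sdhd) held both NRF-1 and ETS letters. Neither kind was seen in the Cox6b2 window, and the ETS letters of Atp5k lie past its start. A match of letters is not evidence of binding.

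The depth was 20589218 and 23291747 expected counts in Control and 34083159 and 33909781 in KO. Cpt1a, which encodes the enzyme that passes long-chain fatty acids to carnitine for import into mitochondria, was at 37.0 and 35.6 TPM (transcript abundance corrected for length, with an equal total for each library) in Control and 11.5 and 19.2 in KO. Its log2 fold change was -1.60 (SE 0.15; adjusted p = 0.00695, edgeR), so the libraries followed their labels. That call was not reached with limma on TPM or with an effective length offset, where the adjusted p was 0.368 to 0.441. All 12 LT-HSC markers were detected in each library, from Kit at 232 to 275 TPM to Slamf1 at 2.88 to 4.83, and none passed the test. Of the 12, 9 had a log2 fold change below 0 (median -0.21). Mecom (-0.78), Ctnnal1 (-0.74) and Hoxa9 (-0.40) were lower in KO at an unadjusted p under 0.05 in edgeR, and 0 were higher. Over all genes tested 4.61% were lower and 5.81% higher at that level. Several lists of other cell types' markers held called genes. Erythroid markers summed to 1579 to 1619 TPM in Control and 659 to 771 in KO, with 8 of 15 tested called lower (Alas2 was at 0 in every library). B lineage markers summed to 292 to 401 and 841 to 1082, with 10 of 12 called higher. Mast cell markers summed to 164 to 217 and 513 to 580, with 4 of 9 called higher, Cma1 and Tpsb2 being at 0 in both Control libraries. Neutrophil markers summed to 8154 to 11863 and 6381 to 6535, with 1 of 11 called lower, and 0 of the 4 T and NK markers tested were called (Cd3e and Trac were at 0 in every library). These shifts accompany every comparison given here, and their part in the results was not tested. In bulk RNA, fewer cells of a type and less RNA per cell cannot be told apart.

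The transcripts were abundant, and their summed level differed little between the groups. Together the 55 genes made up 14386 and 13887 TPM in Control (mean 14137 ± 353, SD, n = 2) and 14439 and 14333 TPM in KO (14386 ± 74.9), or 1.39% to 1.44% of all TPM in each library. They held 0.637% to 0.674% of the counts, and their transcripts were short, with a median effective length of 471 bases against 2102 over all genes tested. The groups overlapped in TPM, and the difference of the means was smaller than the SD of Control.

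Of the 55 members, 51 passed the filter on low counts and entered the test of 14635 genes. The other 4 were at 0 in every library. They were Cox8c, a testis form, Cox8b, Cox7b2 and the second Atp5o model (ENSMUSG00000116933). No member passed an adjusted p of 0.05 in edgeR, and 0.663% of all genes tested did (0.451% higher and 0.212% lower in KO). That share is too low for a lack of calls among 51 genes to set them apart. At an unadjusted p under 0.05 there were 4 members, 2 higher (Atp5j2, Atp5l) and 2 lower (Cox5b, Atp5g3), against 10.4% of all genes tested (5.81% higher and 4.61% lower). DESeq2 called 2 of the 51, Atp5j2 as higher and Cox5b as lower, against 7.2% of all genes it tested.

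The median log2 fold change, KO over Control, was -0.05 over the 51 members and 0.01 over all genes tested. It was below 0 for 33 members (64.7%), against 49.1% of all genes tested. With limma on TPM it was below 0 for 25 members. The median there was 0.01 over the members and 0.03 over all genes tested. For scale, the 2 Control libraries differed by a median of 0.19 on the log2 CPM scale, the 2 KO libraries by 0.14, and the group means by 0.10. Groups did not overlap in CPM (counts scaled to the library total) for 17 members (42% of all genes tested), 8 higher and 9 lower in KO, while 23.7% of all genes tested did not overlap and were higher and 18.3% were lower. In TPM 18 did not overlap (39.9% of all genes tested), 11 being higher and 7 lower, against 23.1% and 16.8%. These members' shares are thus not above those of all genes.

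**Figure D1:**
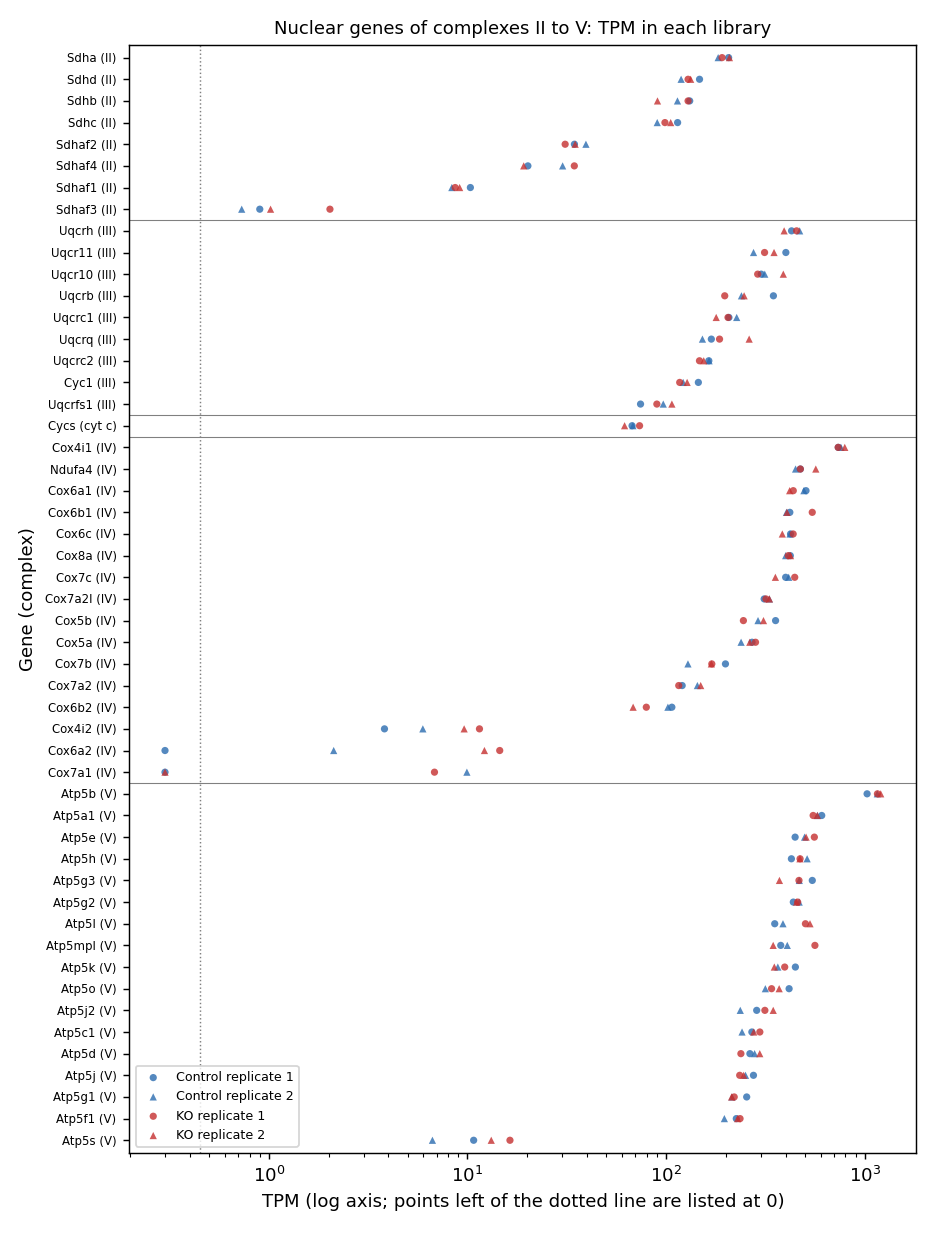
TPM (log axis) of each of the 51 members tested, 1 row a gene with its complex in brackets, with Control in blue, KO in red, circles for replicate 1 and triangles for replicate 2. The 43 genes with a mean of 50 TPM or more sit between 61.8 and 1203 TPM with their points close together, while Sdhaf3, Cox4i2, Cox6a2, Cox7a1 and Atp5s lie far to the left and spread more; points left of the dotted line are listed at 0.

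The intervals, like the p-values, rest on the spread between libraries, which may be technical. On that spread they were narrow for most well expressed genes. The 95% interval of the fold change lay within 2-fold either way for 44 of 51 members (86.3%), against 53.6% of all genes tested, with a median half-width of 0.33 on the log2 scale against 0.62. Among the 43 with a mean of 50 TPM or more it did so for 42, Cox6b2 being the exception, and their log2 fold changes ran from -0.49 to 0.41. Within the narrower band of 1.5-fold lay 31 intervals. The 8 genes under 50 TPM were the assembly factors Sdhaf1 to Sdhaf4, the forms Cox4i2, Cox6a2 and Cox7a1, and Atp5s.

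**Figure D2:**
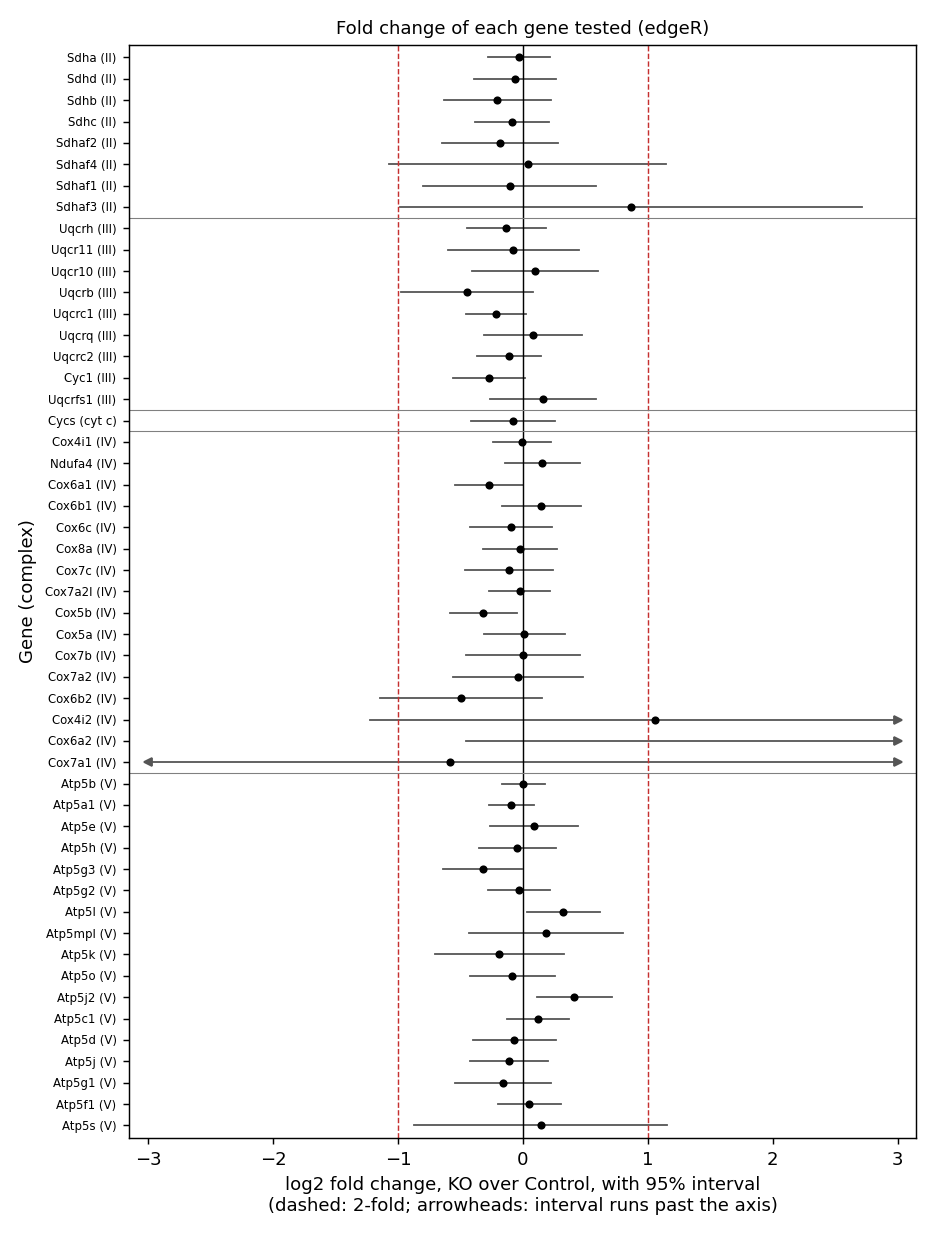
Log2 fold change of KO over Control (edgeR) with its 95% interval for each member tested, with the dashed lines at 2-fold. Most intervals cross 0 and stay between the dashed lines, and those of Sdhaf3, Sdhaf4, Cox4i2, Cox6a2, Cox6b2, Cox7a1 and Atp5s run past them; the point of Cox6a2, at 3.58, lies off the axis.

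The levels of the 4 complex II subunits overlapped between the groups. Sdha, the flavoprotein that oxidizes succinate, was at 206 and 183 TPM in Control and 191 and 208 in KO. Sdhb, the iron-sulfur subunit, was at 131 and 114 in Control and 129 and 90.5 in KO. The groups overlapped for both.

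The membrane anchors Sdhc and Sdhd were likewise mixed. Sdhc was at 114 and 90.2 TPM in Control and 98.6 and 105 in KO. Sdhd was at 147 and 119 in Control and 129 and 133 in KO. Log2 fold changes of the 4 subunits were -0.03 (Sdha, SE 0.11), -0.20 (Sdhb, SE 0.19), -0.09 (Sdhc, SE 0.13) and -0.06 (Sdhd, SE 0.14), with adjusted p of 0.803 or more in edgeR. The 95% intervals of the fold were 0.824 to 1.16 for Sdha, 0.645 to 1.17 for Sdhb, 0.765 to 1.16 for Sdhc and 0.761 to 1.20 for Sdhd. No direction is given for Sdha or Sdhc, whose TPM ratios or limma fits point the other way.

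The complex II assembly factors, which insert cofactors or chaperone the SDH subunits, were expressed at lower levels. Sdhaf2, which is needed to attach FAD to Sdha, lay between 31.0 and 39.5 TPM in the 4 libraries and Sdhaf1 between 8.34 and 10.3. Sdhaf4 ranged from 19.2 to 34.5 TPM, with both extremes in KO. Sdhaf3 was at 0.90 and 0.73 in Control and 2.03 and 1.02 in KO, without overlap, but its log2 fold change of 0.86 had an SE of 0.80 (adjusted p = 0.809, edgeR). The summed TPM of complex II was 665 and 585 in Control and 624 and 601 in KO, and its median log2 fold change was -0.08, which turned to 0.02 without Control replicate 1.

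Complex III had a median log2 fold change of -0.11, the lowest of the 4 complexes, and it was negative under each alternative run (-0.15 to -0.06). None of its 9 genes passed the test. Cyc1, cytochrome c1, which hands electrons to cytochrome c, was at 145 and 122 TPM in Control and 117 and 128 in KO. In CPM it was at 133 and 114 in Control and at 106 and 100 in KO. The groups overlapped in TPM and not in CPM. Its log2 fold change was -0.27 (SE 0.12, 95% interval of the fold 0.681 to 1.01; adjusted p = 0.512, edgeR).

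The core proteins Uqcrc1 and Uqcrc2 did not overlap on either scale. Uqcrc1 was at 207 and 227 TPM in Control and 205 and 179 in KO (log2 fold change -0.22, SE 0.10; adjusted p = 0.525, edgeR). Uqcrc2 was at 164 and 165 in Control and 147 and 155 in KO, at -0.11 (SE 0.11). Uqcrfs1, the Rieske iron-sulfur protein, had the positive value of 0.16 (SE 0.18), with 74.3 and 96.7 TPM in Control and 89.8 and 107 in KO. None of these passed the test.

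Of the small supernumerary subunits of complex III, Uqcrh and Uqcr11 were the most abundant by mean TPM. Uqcrh, the hinge protein, was at 428 and 470 TPM in Control and 454 and 393 in KO, and Uqcr11 at 401 and 276 in Control and 313 and 349 in KO. Uqcrb was at 347 and 239 in Control and 197 and 247 in KO, at -0.45 (SE 0.23; adjusted p = 0.556, edgeR), where Control replicate 1 stood above the other 3 libraries. Uqcrq had a log2 ratio of 0.48 in TPM and of 0.09 in CPM, and its effective length was estimated at 437 and 436 bases in Control and at 388 and 306 in KO. The sum over complex III was 2237 and 2061 TPM in Control and 1998 and 2208 in KO. Cycs, the cytochrome c of somatic cells, was at 67.4 and 68.1 TPM in Control and 73.5 and 61.8 in KO (log2 fold change -0.08, SE 0.14), with the Control values between those of KO.

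Among the ubiquitous subunits of complex IV, Cox5b and Cox6a1 had the lowest fold changes, at -0.32 and -0.27, and neither passed the test in edgeR. Cox4i1, its regulatory subunit and the most abundant of the complex, was at 736 and 759 TPM in Control and 735 and 793 in KO, with a 95% interval of the fold of 0.848 to 1.17. Ndufa4, once assigned to complex I and now known as a complex IV subunit, was at 474 and 449 in Control and 474 and 567 in KO, at 0.16 (SE 0.13; adjusted p = 0.772, edgeR), and in CPM it was higher in KO without overlap, at 112 and 114 against 116 and 137. Cox8a was at 422 and 400 in Control and 412 and 423 in KO, and Cox7b at 199 and 129 in Control and 170 and 169 in KO. The groups overlapped in TPM for Cox4i1, Ndufa4, Cox8a and Cox7b. The sum over complex IV was 4748 and 4592 TPM in Control and 4725 and 4660 in KO. Its median log2 fold change of -0.02 turned positive (0.002 to 0.02) with an effective length offset, with limma and without KO replicate 1.

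Cox5b, a zinc-binding subunit, was lower in KO in CPM without overlap, at 126 and 116 in Control and 98.1 and 98.0 in KO. In TPM it was at 356 and 290 in Control and 245 and 309 in KO, where the groups overlapped. Its log2 fold change was -0.32 (SE 0.12, 95% interval of the fold 0.666 to 0.970; unadjusted p = 0.0277, adjusted p = 0.422, edgeR). DESeq2 gave -0.32 as well, with an adjusted p of 0.0286, which was the lowest over all alternatives. Of its 50-base words 11.9% also occur in a processed copy, Gm11273, though RSEM placed the counts with a posterior SD of at most 0.00406%.

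Tissue-restricted forms of complex IV subunits were present at low shares, with Cox6b2 the exception. Cox6b2, known as the testis form of Cox6b, was at 107 and 102 TPM in Control and 79.5 and 68.2 in KO. The ubiquitous Cox6b1 was at 420 and 404 in Control and 544 and 406 in KO. Cox6b2 thus made up 20.3% and 20.2% of the Cox6b family TPM in Control and 12.7% and 14.4% in KO, a difference of -6.68 percentage points between the means (SD 1.16 in KO), or -5.28 by library-scaled counts. The shares did not overlap, but 2 libraries against 2 cannot give an exact permutation p (two-sided) under 0.333. The log2 fold change of Cox6b2 was -0.49 (SE 0.28, 95% interval of the fold 0.453 to 1.11; adjusted p = 0.598, edgeR), so the gene alone did not pass the test.

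Cox6a2, the heart and skeletal muscle form of Cox6a, was listed at 0 and 2.12 TPM in Control and 14.5 and 12.2 in KO, on 0, 15, 148 and 124 counts. It held 0% and 0.427% of the Cox6a TPM in Control and 3.22% and 2.82% in KO. The fitted log2 fold change was 3.58 with an SE of 1.75 (95% interval of the fold 0.728 to 201; unadjusted p = 0.0749, adjusted p = 0.532, edgeR). It was called when Control replicate 2 was left out (adjusted p = 0.0218), which leaves 1 Control library, at 0. Of 4 markers of muscle fibers, Myh4 and Acta1 were at 0 in every library, and the 4 summed to 3.25 and 0 TPM in Control and 4.86 and 0.21 in KO, too low to be tested. A list of 6 plasmacytoid dendritic cell markers, chosen after the values were seen, summed to 234 to 275 TPM in Control and 344 to 345 in KO with none called. Of these, Ly6d was at 0 in both Control libraries and at 21.7 and 11.6 TPM in KO (adjusted p = 0.0697, edgeR). Ccr9 (log2 fold change 1.61), Tcf4 (0.40), Irf8 (0.33) and Bst2 (0.34) were also higher in KO without overlap. Over all genes tested, 23.7% were so in CPM and 23.1% in TPM. Siglech went the other way, at -1.45 (SE 2.42). Its level lay between 0 and 3.11 TPM with overlap. In CPM it was lower in KO without overlap, at 1.36 and 0.945 in Control and 0.851 and 0 in KO. Whether plasmacytoid dendritic cells were present was not tested, nor was any part of theirs in the Cox6a2 values. Cox6a2 shares 70 exon bases with Itgad on the other strand, and whether strand was used in counting is not stated. Its partner Cox6a1 was lower in KO without overlap, at 506 and 494 TPM in Control and 437 and 419 in KO (log2 fold change -0.27, SE 0.12; adjusted p = 0.480, edgeR).

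Cox4i2, the form of subunit 4 known from lung and from hypoxic cells, was at 3.82 and 5.96 TPM in Control and 11.5 and 9.62 in KO. It made up 0.516% and 0.779% of the Cox4i TPM in Control and 1.54% and 1.20% in KO. The groups did not overlap, and the log2 fold change was 1.06 with an SE of 0.99 (adjusted p = 0.809, edgeR), so the difference is about as large as its error. Cox7a1, the heart and muscle form of Cox7a, was at 0 and 9.93 TPM in Control and 6.82 and 0 in KO, which is 0 to 23 counts in a library and gives no direction. Cox7a2 held 26.3% to 31.1% of the Cox7a family TPM, and Cox7a2l, a relative known for joining complexes III and IV into supercomplexes, held 68.3% to 72.2%. Cox7b and Cox8a held all of the TPM of their families.

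**Figure D3:**
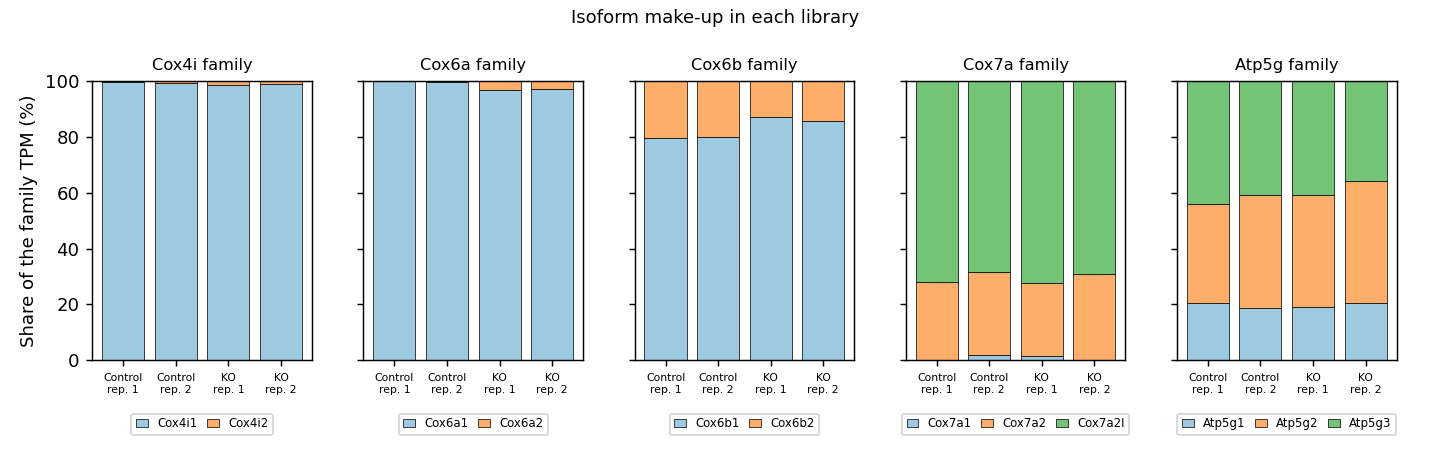
Share of each subunit family's TPM (%, stacked to 100) held by its alternative genes in each library. The Cox6b2 segment is 20.2% to 20.3% in Control and 12.7% to 14.4% in KO, Cox4i2 and Cox6a2 are thin segments of at most 3.22%, and the Cox7a and Atp5g families are mixed in every library.

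Complex V carried the highest summed level, 6669 and 6582 TPM in Control (6625 ± 61.7, SD, n = 2) and 7018 and 6802 in KO (6910 ± 153). These sums did not overlap, but the share of counts did, at 0.342% to 0.358% in Control and 0.343% to 0.351% in KO. The median log2 fold change of its 17 genes tested was -0.03, and it turned to 0.01 with limma on TPM and to 0.01 to 0.05 when either Control library was left out. The catalytic F1 subunit Atp5b was the most abundant member of all, at 1028 and 1157 TPM in Control and 1158 and 1203 in KO. Its log2 fold change was 0.003 (SE 0.08), and the 95% interval of the fold of 0.889 to 1.13 was among the narrowest here. Atp5a1, the other large F1 subunit, was at 607 and 578 in Control and 550 and 577 in KO, at -0.09 (SE 0.08; adjusted p = 0.774, edgeR).

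Subunits f and g, small membrane proteins of the ATP synthase at the site where monomers join, had the higher values in KO. Atp5j2 (subunit f) was at 286 and 236 TPM in Control and 314 and 346 in KO, and at 77.3 and 79.7 CPM against 101 and 110. Its log2 fold change was 0.41 (SE 0.13, 95% interval of the fold 1.08 to 1.64), at an adjusted p of 0.349 in edgeR and 0.00969 in DESeq2. Atp5l (subunit g) was at 352 and 388 TPM in Control and 503 and 530 in KO, and at 86.1 and 84.2 CPM against 102 and 113. Its log2 fold change was 0.33 (SE 0.13, 95% interval of the fold 1.02 to 1.54; adjusted p = 0.446, edgeR). Both were without overlap on either scale. Atp5k (subunit e), of the same region, was at 447 and 365 TPM in Control and 395 and 351 in KO, at -0.19 (SE 0.22). Over the alternatives the log2 fold change ran from 0.32 to 0.48 for Atp5j2 and from 0.25 to 0.48 for Atp5l.

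The c subunit, whose ring turns with the proton flow, is encoded by 3 genes that yield the same mature protein. Atp5g3 was at 544 and 468 TPM in Control and 467 and 372 in KO (log2 fold change -0.32, SE 0.14; unadjusted p = 0.0465, adjusted p = 0.472, edgeR). Atp5g2 was at 437 and 468 in Control and 460 and 454 in KO. Atp5g1 was at 254 and 215 in Control and 220 and 214 in KO. Atp5g3 held 44.1% and 40.7% of the family in Control and 40.7% and 35.8% in KO, Atp5g2 held 35.4% and 40.6% against 40.1% and 43.7%, and Atp5g1 18.7% to 20.6% throughout. The shares of Atp5g1 and Atp5g2 overlapped between the groups, and those of Atp5g3 met at 40.7%. Atp5g2 shares 38.3% of its 50-base words with other gene models and is the more uncertain, though the posterior SD of its count was at most 0.416%.

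For the other 9 genes tested, which include the F1 subunits Atp5c1, Atp5d and Atp5e and the stalk subunits Atp5f1, Atp5h, Atp5j and Atp5o, no adjusted p was under 0.801 in edgeR. Their log2 fold changes ran from -0.11 (Atp5j) to 0.18 (Atp5mpl). Atp5s, a factor related to the stalk, was at 10.7 and 6.66 TPM in Control and 16.4 and 13.2 in KO, a log2 ratio of 0.76 in TPM and 0.15 in CPM. Its effective length was estimated at 1027 and 1337 bases in Control and at 806 and 713 in KO.

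TPM and library-scaled counts gave log2 ratios close to each other for most members, but did not always separate the groups alike. The median ratio over the members was 0.005 in TPM and -0.03 in CPM. The groups were apart only in CPM for Sdhaf2, Cyc1, Cox5b and Ndufa4. They were apart only in TPM for Uqcrq, Atp5b, Atp5f1, Atp5j and Atp5s. The log2 ratio of the group means was higher in TPM than in CPM by a median of 0.03, and the ratios differed in sign for 6 members (Sdha, Cox7a2, Cox7a2l, Cox8a, Atp5g2 and Atp5h), all of them at 0.04 or less in TPM. They differed by over 0.2 for Atp5s and Uqcrq. For Atp5l the ratio was 0.48 in TPM and 0.34 in CPM, for Atp5j2 0.34 and 0.42, and for Cox5b -0.22 and -0.30. By the posterior SD, the assignment of reads by RSEM added little error to the counts of most members. That SD does not cover the estimated effective length behind TPM. The posterior SD was at most 1% of the count for 49 of the members, and Cycs (1.24%) and Atp5l (1.14%) were above it among those tested. There were 10 members with over 10% of their 50-base words in another gene model, and 15 overlap an exon on the opposite strand, such as Atp5j with Gabpa over 397 bases.

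**Figure D4:**
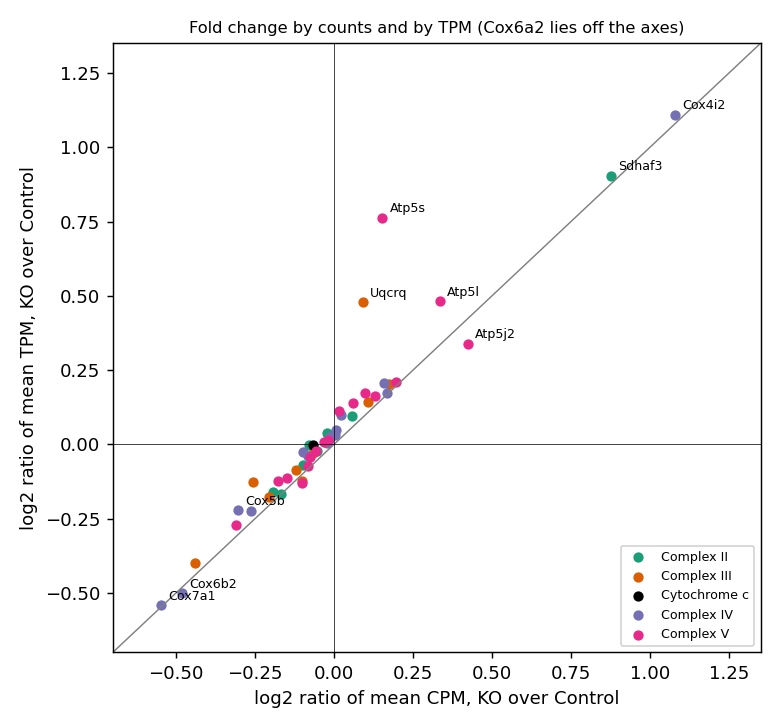
Log2 ratio of the KO to the Control mean in TPM (vertical) against that in CPM (horizontal) for each member tested, coloured by complex, with the line of equal ratios. Most points lie close to the line with a median of 0.03 above it, Atp5s (0.76 against 0.15) and Uqcrq (0.48 against 0.09) lie well above it, and Cox6a2 is off the axes.

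Other genes of the same machinery are given by list, and none had a gene called by edgeR. The mitochondrially encoded subunits of complexes III to V (6 tested) had a median log2 fold change of 0.20, with 5 of 6 above 0, and summed to 33575 and 28826 TPM in Control and 36885 and 36358 in KO. Of these mt-Co2, a catalytic subunit of complex IV, was at 0.31 (SE 0.09; adjusted p = 0.324, edgeR) and mt-Atp8 at 0.26 (SE 0.14). The sum leans on mt-Atp8, with the most TPM of the 6, 11202 and 10151 in Control and 13927 and 13465 in KO. It had the fewest counts, 1826 and 1699 in Control and 3303 and 3312 in KO, so its TPM depends strongly on its effective length. For mt-Co3, at 1639 and 559.5 TPM in Control, the posterior SD reached 17.6% of the count. It reached 6.48% for mt-Co2 and 4.91% for mt-Atp6. Complex I subunits (35 tested) had a median of -0.02, with Ndufs7 at 0.34 (SE 0.19) and Ndufs6 at -0.30 (SE 0.19). Assembly factors of complexes III to V (35 tested) had a median of 0.03. The lowest p there was for Uqcc3, a complex III assembly factor, at 73.2 and 88.4 TPM in Control and 53.2 and 51.4 in KO (log2 fold change -0.67, SE 0.23; adjusted p = 0.401, edgeR), and Coa5 was at -0.28 (SE 0.12).

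Transcription factors and coactivators of respiratory genes (16 tested) had a median of 0.10 by counts, which turned to -0.07 with an effective length offset and to -0.02 and -0.03 with limma on TPM. Gabpa was at 0.22 (SE 0.14) and Nrf1 at 0.04 (SE 0.15), and these 2 are named for the promoter letters above, with their values seen. Sp1 was at 0.20 (SE 0.10) by counts but at 127 and 30.8 TPM in Control and 36.1 and 45.8 in KO, and Polrmt, the mitochondrial RNA polymerase, was at -0.34 (SE 0.21). TCA cycle and general mitochondrial genes (23 tested) had a median of -0.12, with 20 of 23 below 0. Tomm40, the import channel of the outer membrane, was at -0.34 (SE 0.12; adjusted p = 0.408, edgeR). Citrate synthase (Cs) was at -0.24 (SE 0.10; adjusted p = 0.460, edgeR).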

How the data were processed

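RNA-seq of polyadenylated RNA (directional library kit, Illumina HiSeq) was analysed from 2 Control and 2 KO libraries, grouped by their labels. STAR, RSEM and mm10 are named in the submitters' processing notes. For versions, annotation and strand setting nothing is given in the sources used here. Tests used the deposited expected counts, not normalized, which the authors obtained with RSEM by dividing shared reads among genes. The deposited TPM values are scaled for effective length and depth by the authors, and were used for levels and shares. The deposited posterior mean counts were an alternative. Gene models without a symbol took up no more than 0.00577% of any library's counts.

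These counts, after rounding to whole numbers, were tested two-sided, by group only, with the quasi-likelihood test of edgeR 4.0.16 (R 4.3.3; TMM factors 0.985 to 1.01; filterByExpr at a minimum count of 10), with Benjamini-Hochberg adjustment over 14635 genes. The biological coefficient of variation was 0.471. The script was tested on simulated data with known changes. It called 57 of 100 genes with a simulated log2 change of 1 either way and 87 of 100 with a change of 2. The changed genes were drawn from all genes tested with a mean count over 100, so these rates are not specific to the members. Among such genes, true changes of these sizes can thus go uncalled. CPM is the expected count divided by the library total. Alternatives were DESeq2 1.42.0, other scalings and filters, an effective length offset, limma 3.58.1 on log2(TPM + 1) and log2(TPM + 0.1), a replicate block, and leaving out each library in turn.

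Genes named were Cpt1a, any member called, Sdha to Sdhd, Cycs, Cyc1, the isoform families and Cs, in each complex the 2 members of highest mean TPM and the 2 of smallest p, and in each other list the 2 genes of smallest p. The rule also covers a gene that is not reported here. Further members are named to account for their complexes, having seen their values. Members and lists were chosen with earlier results of these data known. Symbols and positions came from GENCODE annotation and promoter windows from RefSeq (GRCm38.p6). Cox4i1, Cox4i2, Cox6a2, Cox6c, Cox8c, Cyc1, Sdhc, Uqcrb, Uqcrc2, Uqcrq, Atp5a1 and Atp5mpl had no window matched here.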

Additional observations from a re-analysis of the deposited data

How the results depend on the processing

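No member was called in 9 of the 10 other ways of processing the 4 libraries. DESeq2 called 1 member as higher and 1 as lower, 1 mitochondrially encoded subunit as higher, and 1 assembly factor (Uqcc3) and 1 TCA cycle and mitochondrial gene (Tomm40) as lower, while over all genes it called 614 as higher and 503 as lower against 66 and 31. With a library left out, 0 to 1 members and 0 to 1 mitochondrially encoded subunits were called higher, and the members' median was -0.059 to -0.0012. That median was 0.0065 and 0.0067 with limma at a pseudocount of 1 and 0.1, against 0.029 and 0.033 over all genes tested there. By expected counts the KO minus Control share was 3.75 points for Cox6a2 and -5.28 for Cox6b2.

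Several log2 fold changes turned sign, most of them near 0, but Sp1 went from 0.20 to well below 0. With an effective length offset log2 fold changes were 0.022 for Sdha, 0.014 for Cox4i1, 0.033 for Cox7b, 0.0063 for Cox8a and -0.95 for Sp1. In limma on TPM, at a pseudocount of 1 and of 0.1, they were 0.039 and 0.039 for Sdha, 0.0065 and 0.0067 for Sdhc, 0.030 and 0.030 for Cox4i1, 0.015 and 0.015 for Cox7a2l, 0.081 and 0.081 for Cox7b, 0.024 and 0.024 for Cox8a, 0.015 and 0.015 for Atp5g2, and -0.61 and -0.62 for Sp1. With library totals only and upper-quartile factors Cox4i1 was at 0.0043 and 0.0025 and Cox7b at 0.0073 and 0.0079, and with no filter Cox7b was at 0.0028. The cause was not tested. With 1 library left out in turn the ranges were -0.13 to 0.069 (Sdha), -0.46 to 0.021 (Sdhb), -0.17 to 0.0061 (Sdhc), -0.20 to 0.091 (Sdhd), -0.32 to 0.23 (Uqcr11), -0.25 to 0.083 (Cycs), -0.074 to 0.063 (Cox4i1), -6.71 to 6.33 (Cox7a1), -0.24 to 0.15 (Cox7a2), -0.075 to 0.028 (Cox7a2l), -0.27 to 0.34 (Cox7b), -0.062 to 0.021 (Cox8a), -0.027 to 0.039 (Atp5b), -0.35 to 0.072 (Atp5g1) and -0.079 to 0.027 (Atp5g2).

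The replicate numbers gave no sign of pairing the libraries (correlation of same-numbered deviations -0.025). With a replicate block 0 members were called, the members' median was -0.042, Cox7b was at 0.030, and over all genes 62 were higher and 36 lower.

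With 2 libraries a group, intervals of 7 of the 51 members reached past 2-fold. Calls over all genes were 3 higher and 1 lower with an effective length offset, 5 and 0 or 2 and 0 with limma, 111 and 85 with no filter, 176 and 144 or 238 and 133 without Control replicate 1 or 2, and 24 and 18 or 38 and 26 without KO replicate 1 or 2.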
